A study of Mus musculus with 4 samples.

Results

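Cre-ERT2, tdTomato and eGFP are the 3 transgene features, of 53703 in all, that were added to the mouse annotation before the libraries were counted. They were read out in every marker-gated cell class of 4 droplet-based scRNA-seq libraries of 12-week-old mice. Cells came from the metaphysis of femur and tibia and had been depleted of hematopoietic lineage, CD45+ and CD117+ cells. Both genotypes carried floxed Lats2 (Lats2 lox/lox) on a C57BL/6 background, and both sexes were used. The 2 Lats2iECKO libraries ("mutants") also carried Cdh5(PAC)-CreERT2, a large genomic transgene in which Cdh5 regulatory sequence drives the recombinase in endothelial cells (ECs), and the 2 control libraries came from Cre-negative littermates. According to the methods, both genotypes received tamoxifen on consecutive days as juveniles, whereas the labels describe controls as untreated. The methods also describe a Cdh5(PAC)-mT/nG reporter that was bred into mutants and controls, with membrane tdTomato and nuclear GFP under Cdh5 regulatory sequence. The sources used here do not state whether the sequenced mice carried it or Rosa26-mTmG. They also do not state whether a library held cells of 1 or several animals, so p-values refer to libraries and not to animals. With 2 libraries a genotype, edgeR moderates the spread of each gene by that of all genes.

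Cre-ERT2 is a fusion of the Cre recombinase with a mutated ligand-binding domain of the estrogen receptor. Without ligand it is held in the cytoplasm by heat-shock proteins, and tamoxifen metabolites release it to the nucleus, where it recombines DNA between loxP sites. The Rosa26-mTmG reporter produces a membrane-bound red fluorescent protein, tdTomato, in every cell until Cre removes that cassette, after which membrane-bound eGFP is produced instead. Cdh5 encodes VE-cadherin, the adhesion molecule of endothelial junctions, and lies on chromosome 8 at 104828231 to 104871143 (GRCm39, plus strand). The transcript level of Cre-ERT2 reports the activity of the transgene at the age of 12 weeks and is not a measure of recombination, which had been induced weeks earlier.

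The libraries held 69.6 to 85.9 M UMIs (M, 1000000), and 5119 and 5887 cells of mutants and 6813 and 6780 of controls passed the filter, with median depths of 7574 to 8181 UMIs. Cells were assigned to classes by marker genes that included none of the 3 transgenes and not Lats2. The EC gate took 2851 cells, of which 2835 also lay in endothelial clusters, and all 12 endothelial markers were above 10 counts per 1000000 UMIs (CPM) in it. A further 19006 cells fell into 10 non-endothelial classes. Stromal cells formed dpMSC and mpMSC, the paper's names for diaphyseal and metaphyseal mesenchymal stromal cells. Both were gated by markers alone, and the cells of both came from the dissected metaphysis. The other classes were OB (osteoblasts), CHO (chondrocytes), SMC (smooth muscle cells and pericytes), fibroblasts, leukocytes, erythroid cells, megakaryocytes and glial cells. No class was assigned to 2742 cells. Between 6 and 16 cell barcodes were shared by any 2 libraries, and none of these held Cre-ERT2 in both.

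tdTomato was not detected in any barcode of any library. It had 0 of 317.9 M UMIs, where 3 counts would be 0.00944 CPM. In ECs, 3 counts would be 0.594 and 0.464 CPM in mutants and 0.504 and 0.520 CPM in controls. eGFP was also at 0 in mutant 1, mutant 2 and control 1. In control 2 it had 3 UMIs, which lay in 2 barcodes of 22 and 25 UMIs in all, so that no cell in the data held one. With 0 UMIs in ECs of all 4 libraries, neither reporter could be tested between genotypes. UMIs were counted from the 3' end of transcripts, and how far the added reporter sequence extends is not given in the sources used here. A count of 0 therefore does not say whether the alleles were present.

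Cre-ERT2 was detected in both mutants and was nearly absent from controls. Its total was 329 UMIs in mutant 1 and 386 in mutant 2, against 6 in control 1 and 6 in control 2. All of its entries in the 4 matrices were whole numbers, so no division of its UMIs with another gene was seen. ECs held 588 of the 715 UMIs of both mutants (82.2%). Another 12 were in gated non-endothelial cells and 14 in ungated cells. Barcodes that were not analysed as cells held the rest, with 35 in those of at least 1000 UMIs that failed the filter, 17 in those of 100 to under 1000 UMIs and 49 in those under 100 UMIs.

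In ECs, Cre-ERT2 stood at 54.4 CPM in mutant 1 (275 UMIs in 532 cells) and 48.4 CPM in mutant 2 (313 UMIs in 668 cells), or 51.4 ± 4.26 CPM (mean ± SD, n = 2). Control ECs held 0.672 and 0.867 CPM (4 and 5 UMIs in 828 and 823 cells). The genotypes did not overlap, and the ratio of their summed levels was 66.5 (95% interval 34.8 to 146, counting error only). The log2 difference was 6.10 ± 0.21 (edgeR quasi-likelihood test, adjusted p = 1.7e-08), beside a background of 18.7% of 14448 genes called higher in mutants. Since controls were Cre-negative littermates, the design set this difference in ECs and their subtypes in advance. The test shows that the transgene was read out and says nothing of its regulation. Here and below, ± on the log2 scale is the fitted difference divided by the square root of the test's F. Where 1 side held few UMIs, as in control ECs, it understates counting error, which the interval of the ratio shows. By size of the difference Cre-ERT2 ranked 5 among the 14448 genes. Cdh5 itself did not pass the test in the same cells, at 1013 and 1074 CPM in mutants and 1000 and 997 CPM in controls (log2 difference 0.14 ± 0.05, adjusted p = 0.059, edgeR). Cdh5 was among the markers of the EC gate, so these cells had been selected in part on it.

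**Figure D1:**
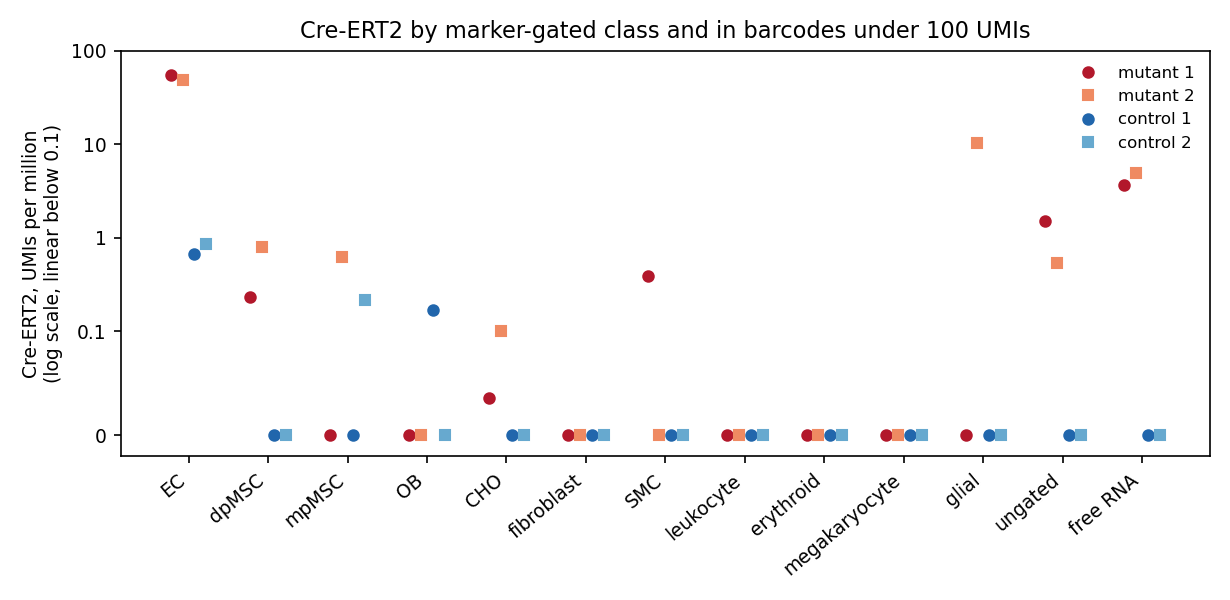
Level of Cre-ERT2 (CPM, logarithmic axis that is linear below 0.1) in each marker-gated class, in ungated cells and in barcodes under 100 UMIs (free RNA), with 1 point per library. ECs of the 2 mutants lie at 54.4 and 48.4, free RNA of mutants at 3.70 and 4.89, and other points at or below 1, except ungated cells of mutant 1 at 1.53 and glial cells of mutant 2 at 10.2, which is a single UMI in 31 cells.

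Cre-ERT2 was higher in mutants, which the genotypes set in advance, in each of the 4 EC subtypes that could be tested between genotypes. Whether the size differed between subtypes was not tested. Subtypes were gated by their own markers: aEC-like (arterial, with Gja4 and Efnb2), bmEC-like (sinusoidal bone marrow endothelium, with Stab2), mpEC-like (metaphyseal), alEC-like (with Vwf and Selp) and tipEC-like (with Apln and Esm1). The background of genes called higher in mutants was 7.73% in aEC-like, 3.81% in bmEC-like, 10.9% in mpEC-like and 3.74% in alEC-like cells, and Cre-ERT2 passed the test in each. No Cre-ERT2 UMI was found in 387 aEC-like, 447 bmEC-like and 143 alEC-like control cells. Against 3 counts over these controls, the level in mutants was at least 33.0-fold, 30.4-fold and 12.2-fold higher, with adjusted p of 2.9e-06, 0.0019 and 1.7e-05 (edgeR). In mpEC-like cells the log2 difference was 6.11 ± 0.44 (adjusted p = 5.9e-06, edgeR), where the controls' 3 UMIs came from 1 cell. With clusters in place of gates, alEC controls held 4 UMIs and the log2 difference there was 3.83 ± 0.57 (adjusted p = 0.0080, edgeR). tipEC-like cells numbered 6 and 4 in controls, too few for the test. The ratio of mutants over controls in them was 3.22 (interval 0.874 to 26.9), from 127 UMIs against 2.

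Outside ECs, Cre-ERT2 in mutants was close to 0. Gated non-endothelial cells held 3 UMIs in mutant 1 (0.0714 CPM, 3748 cells) and 9 UMIs in mutant 2 (0.196 CPM, 4252 cells). Their level was 762-fold below that of ECs in mutant 1 (95% interval 258 to 3720) and 248-fold below it in mutant 2 (129 to 547). The size of the ratio differed between the libraries, and in both the level lay far from that of ECs. Non-endothelial cells of controls held 2 and 1 UMIs (0.0340 and 0.0166 CPM). The log2 difference from ECs was -8.32 ± 0.21 (edgeR with the library as a block, adjusted p = 5.3e-26), beside 29.9% of 19667 genes called lower in non-endothelial cells. Without single mutants the difference was -9.27 and -7.78, further apart than ± 0.21. The p-value draws on a spread moderated over all genes, since 2 libraries leave few residual degrees of freedom. It does not measure the spread of Cre-ERT2 alone.

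Each of the 10 non-endothelial classes was lower than ECs by the same test, with background shares of genes called lower of 29.9% in dpMSC, 24.1% in mpMSC, 27.8% in OB, 33.3% in CHO, 29.9% in fibroblasts, 28.8% in SMC, 25.2% in leukocytes, 37.6% in erythroid cells, 11.2% in megakaryocytes and 12.3% in glial cells. CHO, the most numerous class, held 1 UMI in 2019 cells and 3 in 2169 (log2 difference -9.05 ± 0.24, adjusted p = 1.8e-12, edgeR). dpMSC held 1 UMI in 611 cells and 4 in 754 (-6.57 ± 0.28, adjusted p = 2.7e-11, edgeR). The dpMSC value was -8.57 without doublets, -7.98 with clusters in place of gates, -5.96 without mutant 1 and -7.74 without mutant 2, and that of CHO was -8.50 and -9.96 without mutant 1 and mutant 2. The UMIs of CHO lay in 4 cells and those of dpMSC also in 4. mpMSC held 0 and 1 UMI, SMC 1 and 0, and glial cells 0 and 1.

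No UMI was found in gated OB, fibroblasts, erythroid cells, leukocytes or megakaryocytes of either mutant. With clusters in place of gates, fibroblasts held 4 UMIs (log2 difference from ECs -7.34 ± 0.25, adjusted p = 2.0e-12, edgeR), and their clusters took in 1112 cells of all libraries that were gated as CHO. The other 4 classes stayed at 0 with clusters. Their depth set different limits. Against 3 counts over both mutants, the level was at least 72.1-fold lower than in ECs in OB, 75.5-fold in fibroblasts, 54.9-fold in erythroid cells, 12.6-fold in leukocytes and 4.95-fold in megakaryocytes. For glial cells the ratio of ECs over them was 9.13, with an interval of 1.63 to 361. With DESeq2 the call was lost in 5 of the 10 classes, with adjusted p of 0.11 in OB, 0.082 in fibroblasts, 0.076 in erythroid cells, 0.20 in leukocytes and 0.20 in glial cells, and it held in megakaryocytes (0.030).

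Of the few non-endothelial cells with Cre-ERT2, all but 2 also held endothelial marker RNA. Of 8000 gated non-endothelial cells of mutants, 11 held the 12 UMIs: 4 CHO, 4 dpMSC, 1 SMC, 1 mpMSC and 1 glial cell. Their median was 10 UMIs of the 12 endothelial markers, against 0 in the 7989 cells without Cre-ERT2, and 5 of the 11 held at least 20, as did 0.463% of the others. Doublet scores marked 4 of the 11 (36.4%) and 3.82% of the others, and 3 of the 11 lay in endothelial clusters. Their median depth was 12546 UMIs, against 8853. Without cells that held any endothelial marker UMI, 2 UMIs remained in 5313 cells, 1 in each mutant (0.0367 CPM, interval 0.00445 to 0.133). Without doublet calls, 7 UMIs remained in 7691 cells (0.0843 CPM). Among ungated cells, 9 held 14 UMIs of Cre-ERT2. Their median was 2 endothelial marker UMIs, 3 of the 9 held none, and 4 held at least 20, against 0.890% of the ungated cells without Cre-ERT2.

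Between genotypes, Cre-ERT2 could be tested in dpMSC, mpMSC, OB, CHO, SMC and glial cells. In dpMSC, with 1 and 4 UMIs in mutants and 0 and 0 in controls, it passed (edgeR adjusted p = 0.019, beside 15.6% of 15766 genes called higher). It did not pass in mpMSC (adjusted p = 0.64), CHO (0.11), SMC (0.52) or glial cells (0.83), nor in OB (0.74), where the UMIs lay in controls (edgeR). In glial cells 0 of 1186 genes passed in either direction, so that the test there says nothing about Cre-ERT2. In the first 3 of these 9.2%, 22.2% and 13.2% of genes were called higher, and in OB 1.47% were called lower. The dpMSC call was lost with DESeq2 (adjusted p = 0.16), without low-count filtering (0.16), with the 20% filter (0.12), without doublets (0.24), with clusters in place of gates (0.22), without mutant 2 (0.16), without control 1 (0.27) and without control 2 (0.27). The 5 UMIs lay in 4 cells, and endothelial marker RNA in dpMSC of mutants stood at 122 CPM.

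Free RNA was read from barcodes under 100 UMIs. There Cre-ERT2 stood at 3.70 CPM in mutant 1 (19 UMIs, interval 2.23 to 5.78) and 4.89 CPM in mutant 2 (30 UMIs, 3.30 to 6.98), and it was at 0 in 5.07 and 5.22 M UMIs of controls. ECs exceeded this by 14.7-fold (9.23 to 24.8) in mutant 1 and 9.90-fold (6.799 to 14.9) in mutant 2. Free RNA in turn exceeded gated non-endothelial cells by 51.9-fold (15.3 to 274) and 25.0-fold (11.6 to 59.9). The level in non-endothelial cells was thus below that of free RNA in both mutants. The share of free RNA in a cell barcode was not estimated, so this comparison cannot tell free RNA from low expression.

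Cre-ERT2 stood in a similar proportion to endothelial RNA in ECs, free RNA and ungated cells. ECs of mutant 1 held 6.49 Cre-ERT2 UMIs per 1000 UMIs of the 12 endothelial markers (interval 5.74 to 7.30), and those of mutant 2 held 5.81 (5.18 to 6.49). In free RNA the ratio was 5.47 (3.29 to 8.54) and 5.92 (3.99 to 8.45), or 93.9% of the ratio in ECs over both mutants (69.5% to 124%). Ungated cells, with 10 and 4 UMIs, had 86.1% of it (47.1% to 144%). Gated non-endothelial cells stood lower, at 28.5% (14.7% to 49.7%), although against Cdh5 alone they reached 76.0% of the EC ratio (39.2% to 133%). The marker list also had counts where Cdh5 was low: megakaryocytes of mutants held 1345 CPM of it with 0 Cre-ERT2 and 0 Cdh5 UMIs, and SMC held 344 CPM with 1 Cre-ERT2 and 24 Cdh5 UMIs.

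**Figure D2:**
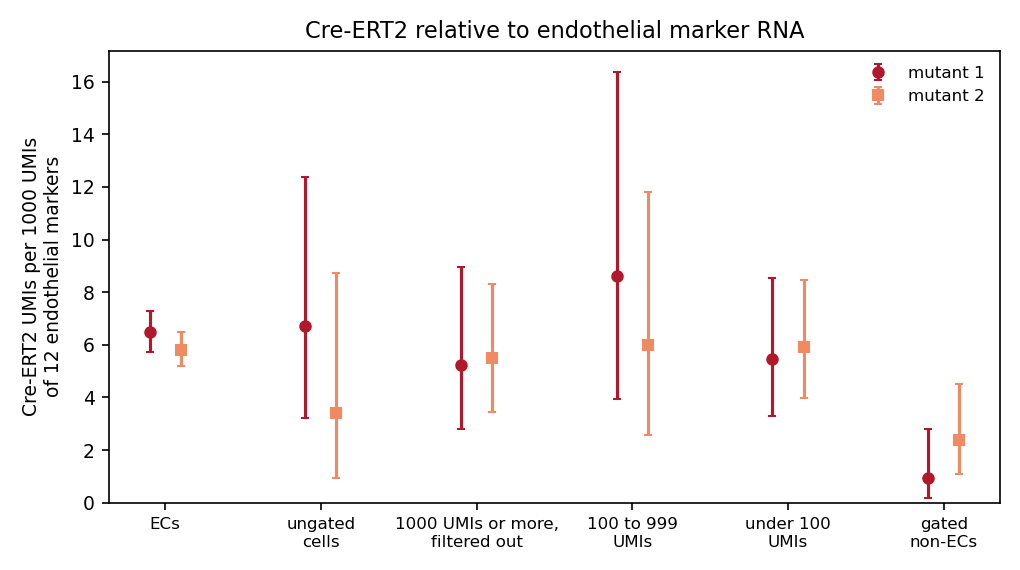
Cre-ERT2 UMIs per 1000 UMIs of 12 endothelial markers in each mutant, in ECs, ungated cells, barcodes left out by the filter or by depth, free RNA (under 100 UMIs) and gated non-endothelial cells, with bars for the 95% Poisson interval. All compartments but the gated non-endothelial cells have intervals that cover both EC values, 6.49 and 5.81.

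Within ECs, Cre-ERT2 was found in a minority of cells. The share with at least 1 UMI was 30.6% in mutant 1 (163 of 532 cells, exact interval 26.7% to 34.8%) and 28.7% in mutant 2 (192 of 668, 25.3% to 32.3%). In control ECs it was 4 of 1651 cells, and in gated non-endothelial cells of mutants 0.0800% and 0.188%, at median depths of 9025 and 8712 UMIs against 6805 and 6595 in ECs. With every cell thinned to 2000 UMIs, which kept 512 and 635 ECs, the shares were 8.59% and 11.0%. Most of the positive ECs held a single UMI (104 and 118 cells), 34 and 46 held 2, and 25 and 28 held 3 or more, up to 10 and 9. These last cells carried 37.5% and 32.9% of the endothelial Cre-ERT2 UMIs.

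Detection followed depth. With the ECs of each mutant divided by depth into 4 bins of equal size, the share with a UMI went, from the shallowest to the deepest bin, from 7.52% to 58.6% in mutant 1 and from 7.78% to 56.9% in mutant 2. A single rate of Cre-ERT2 per UMI for all ECs of a library, with counts drawn as Poisson, would give 35.4% and 33.0% of cells with a UMI, above the measured 30.6% and 28.7%. The level was 29.0 CPM (14.5 to 51.9) and 31.1 CPM (17.4 to 51.4) in the shallowest bin, and it lay between 47.4 and 58.2 CPM in the other 3 bins of both mutants. The intervals of the shallowest bin overlapped those of the other bins of the same mutant. Cdh5 stood, from the shallowest to the deepest bin, at 975, 953, 927 and 1070 CPM in mutant 1. In mutant 2 it rose with depth, at 928, 1013, 1014 and 1131 CPM. Whether Cre-ERT2 and Cdh5 differed in this was not tested.

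**Figure D3:**
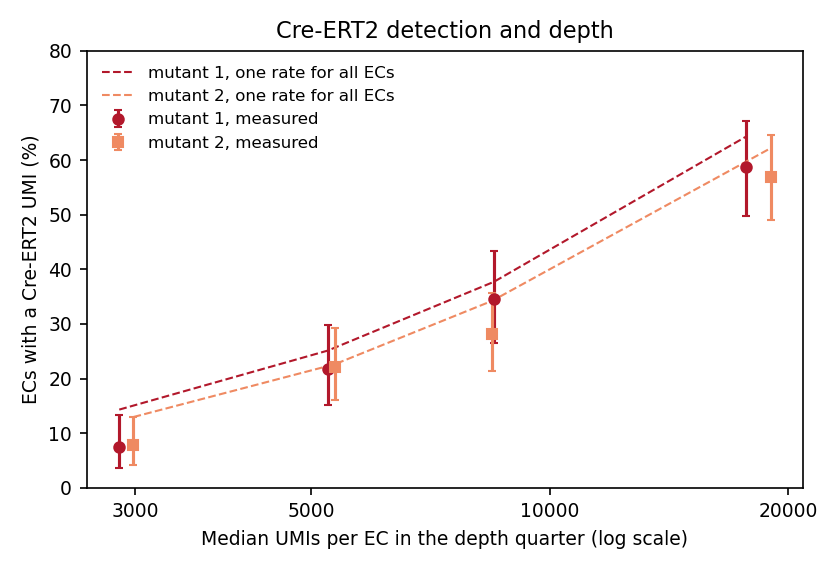
Share of mutant ECs with at least 1 Cre-ERT2 UMI (%) against the median UMIs of each depth bin (logarithmic axis), with exact 95% binomial intervals. The dashed lines give the share expected if all ECs of a library had 1 rate; the measured shares rise from 7.52% and 7.78% to 58.6% and 56.9% and lie below the lines in all 4 bins.

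EC subtypes of mutants differed in their level. tipEC-like cells were highest, at 89.9 CPM in mutant 1 (61 UMIs in 50 cells) and 74.7 CPM in mutant 2 (66 UMIs in 77 cells). Their gate uses Apln, which stood at 304 and 345 CPM in all mutant ECs and 30.8 and 30.7 CPM in all control ECs. The gate thus depends on genotype, and it took only 6 and 4 cells of controls. Whether tipEC-like cells are a subtype or a state of mutant ECs was not tested. mpEC-like cells followed at 54.8 and 54.3 CPM, aEC-like cells at 50.7 and 36.7, and alEC-like cells at 38.0 and 49.6. bmEC-like cells were lowest, at 33.8 CPM (18 UMIs in 59 cells) and 20.2 CPM (12 UMIs in 61 cells). The 2 values of tipEC-like cells lay above all others, and those of bmEC-like cells below all others. mpEC-like values lay above those of aEC-like and alEC-like cells, which changed places between the libraries. ECs with no named subtype stood at 65.5 and 45.4 CPM.

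Against the mean of the other subtypes, tipEC-like cells were higher by 0.99 ± 0.18 on the log2 scale (edgeR with the library as a block, adjusted p = 3.9e-04), beside 14.4% of 10773 genes called higher there. bmEC-like cells were lower, at -1.03 ± 0.26 (adjusted p = 0.0060, edgeR), beside 10.8% called lower. This second call was lost with DESeq2 (adjusted p = 0.058) and with clusters in place of gates (0.080). The other subtypes did not pass the test (7.62% of genes were called higher and 2.64% lower in mpEC-like, 15.4% and 11.3% in aEC-like, 12.4% and 9.8% in alEC-like cells), with -0.14 ± 0.19 in aEC-like, 0.17 ± 0.17 in mpEC-like and 0.01 ± 0.19 in alEC-like cells (adjusted p of 0.66, 0.66 and 0.99, edgeR). tipEC-like cells were also the deepest, with medians of 8441 and 8463 UMIs. Thinned to 2000 UMIs, 26.5% and 14.9% of them held Cre-ERT2, against 1.82% and 6.56% of bmEC-like cells and 7.89% to 9.57% of the cells of the other 3 named subtypes.

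Subtypes also differed in Cdh5, and the excess of tipEC-like cells depended on the reference. Cdh5 was highest in tipEC-like cells, at 1364 and 1425 CPM (log2 difference 0.55 ± 0.08 from the other subtypes, adjusted p = 3.4e-05, edgeR), and lowest in alEC-like cells, at 744 and 765 CPM (-0.46 ± 0.09, adjusted p = 4.8e-04, edgeR). bmEC-like cells held 962 and 954 CPM of Cdh5 (-0.13 ± 0.09, adjusted p = 0.30, edgeR). Per Cdh5 UMI, the log2 distance of tipEC-like cells from the other subtypes was 0.47, that of alEC-like cells 0.43, and that of bmEC-like cells -0.92. In mutant 1 these distances were 0.50, 0.04 and -0.64, and in mutant 2 they were 0.44, 0.82 and -1.20. bmEC-like cells thus had 27.8 Cre-ERT2 UMIs per 1000 of Cdh5 over both mutants (18.8 to 39.7), and the other 4 subtypes had 43.6 to 59.4. Per 1000 UMIs of the 12 endothelial markers the order was different: tipEC-like cells had 14.2 (10.9 to 18.2) in mutant 1 and 10.5 (8.10 to 13.3) in mutant 2, above the 2.74 to 6.09 of the other subtypes in both mutants. The summed markers were lowest in tipEC-like cells, at 6334 and 7133 CPM.

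**Figure D4:**
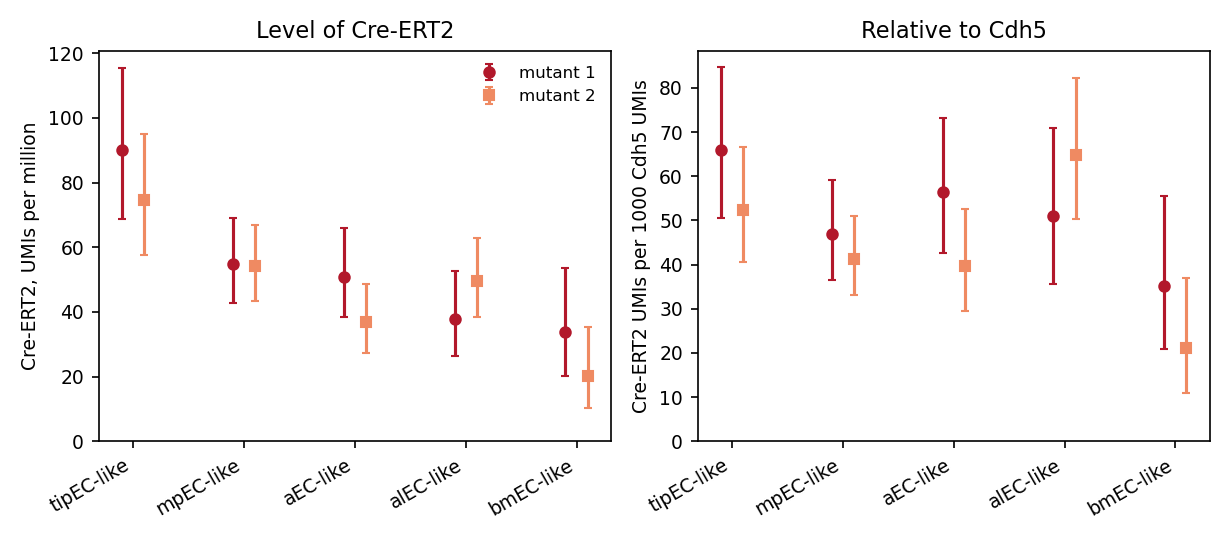
Left, level of Cre-ERT2 (CPM) in the 5 EC subtypes of the 2 mutants; right, Cre-ERT2 UMIs per 1000 Cdh5 UMIs in the same cells; bars give the 95% Poisson interval. tipEC-like cells are highest on the left (89.9 and 74.7) and bmEC-like cells lowest in both panels, while tipEC-like and alEC-like cells overlap on the right.

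The subtype order also depended on how cells were assigned. Of 251 mpEC-like cells of mutants, 111 lay in clusters named tipEC, and these held 96 of the 159 mpEC-like Cre-ERT2 UMIs. With clusters in place of gates, tipEC cells stood 1.21 above the others on the log2 scale (adjusted p = 8.0e-06, edgeR) and mpEC cells fell to -0.85 (adjusted p = 0.022), against 0.17 with the gates.

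Over 15 classes in the 2 mutants (30 points, with ECs divided into their 5 subtypes), the genes whose log2(CPM + 1) was most like that of Cre-ERT2 were Robo4, a guidance receptor of endothelium (Pearson's r = 0.976), Edn1, the precursor of endothelin-1 (0.975), Cdh5 (0.973), Sox18, an endothelial transcription factor (0.962), and Arhgef15, a vascular guanine nucleotide exchange factor (0.961). They were found among 13407 genes with enough UMIs in these classes. These points share libraries and free RNA, and Robo4 and Cdh5 served to gate ECs, so the values describe only where the transcripts lay.

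Splitting ECs of mutants by Cre-ERT2 after thinning to 4000 UMIs gave 77 and 91 cells with a UMI and 323 and 417 without. Before thinning, 163 and 192 of all ECs held a UMI. Here "without" thus means none after thinning, and it takes in cells that held Cre-ERT2 at full depth. Levels of the genes below are from all UMIs of the cells. Lats2, the floxed gene, was at 87.4 CPM with and 94.2 CPM without a Cre-ERT2 UMI after thinning in mutant 1. In mutant 2 it was at 83.1 and 98.998 CPM, and the intervals overlapped in both. Counts over the whole gene, introns included, do not read out whether an exon has been removed. Cdh5 was higher in the cells with Cre-ERT2 in both mutants, at 1259 against 964 CPM and 1255 against 1049 CPM. Angpt2, an angiogenic ligand of the TEK receptor, was also higher in both, at 584 against 234 CPM and 344 against 264 CPM. The YAP1/TAZ targets Ccn1 and Ccn2 were higher in mutant 1 (495 against 368 and 534 against 368 CPM) and lower in mutant 2 (299 against 369 and 306 against 415 CPM). Thbs1, which encodes thrombospondin-1 and is also a YAP1/TAZ target, was higher in both, at 769 against 387 CPM and 345 against 286 CPM. Of the subtype markers read, the tipEC marker Apln was higher in both (602 against 259 and 528 against 329 CPM). The bmEC marker Stab2 was higher in mutant 1 (554 against 469 CPM) and lower in mutant 2 (133 against 439 CPM). The arterial marker Gja4 was lower in mutant 1 (48.6 against 87.9 CPM), with overlapping intervals in mutant 2 (86.4 against 92.8 CPM). Lats1 had overlapping intervals in both (25.5 against 25.7 and 29.1 against 25.1 CPM). tipEC-like cells made up 19.5% and 19.8% of the cells with a UMI and 8.98% and 12.2% of those without. Cells are not replicates, so these differences were not tested.

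The 12 Cre-ERT2 UMIs of controls lay in 6 cells, 3 in each library, and in none of their other barcodes or free RNA. Of these cells, 4 were ECs: a tipEC-like cell with 1 UMI and an mpEC-like cell with 3 in control 1, and a tipEC-like cell with 1 and an EC of no named subtype with 4 in control 2. The others were an OB with 2 UMIs, which was called a doublet and held 69 endothelial marker UMIs, and an mpMSC with 1 UMI and no endothelial marker UMI. None of the 6 barcodes held Cre-ERT2 in a mutant library. tipEC-like cells made up 2 of these 4 ECs, against 10 of all 1651 control ECs. Of 9 genes read in these 4 cells beside Cdh5 and Lats2, 5 were each detected in 3 of them. These were Angpt2 (6.17% and 4.51% of control ECs without Cre-ERT2), Thbs1 (15.4% and 13.2%), Ccn1 (21.3% and 25.9%), Ccn2 (20.2% and 20.8%) and Apln (8.35% and 6.94%). In mutant ECs the shares were, in the same order, 28.6% and 29.0%, 28.6% and 33.1%, 54.3% and 57.3%, 52.1% and 53.3%, and 25.6% and 28.0%. Apart from Ccn1 and Ccn2, the 9 genes were chosen after their values were seen. Apln served to gate tipEC-like cells, as did Kcne3, which was detected in 1 of the 4. The cells held 6510, 16560, 4886 and 24192 UMIs, against medians of 5540 and 5274 in control ECs, and the part of depth in these counts was not tested. Fn1, which encodes fibronectin and stood at 965 and 764 CPM in mutant ECs and 180 and 216 CPM in control ECs without Cre-ERT2, was detected in 1 of them, with 1 UMI, against 43.2% and 46.0% of those control ECs. In mutant ECs its shares were 56.2% and 57.5%. S100a4, a calcium-binding protein gene at 217 and 182 CPM in mutant ECs and 95.2 and 118 CPM in those control ECs, was at 0 in all 4. A count of it was held by 28.4% and 28.1% of mutant ECs and 20.1% and 19.7% of those control ECs. Rps3a3, a ribosomal protein gene copy that was high in mutant ECs (215 and 224 CPM) and low in control ECs without Cre-ERT2 (3.89 and 4.31 CPM), had 30.036 expected counts in the cell with 4 Cre-ERT2 UMIs, 0.25 in the mpEC-like cell and 0 in both tipEC-like cells. An Rps3a3 count was held by 31.2% and 33.1% of mutant ECs and 3.75% and 3.65% of control ECs without Cre-ERT2. In a single cell, neither a count nor a 0 of any of these genes places it. The origin of these cells was not tested.

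Genes around the transgene's source locus and in the pathways that bear on it were read from the same test between genotypes in ECs, where 36.2% of genes passed in either direction and the median log2 difference was 0.00. Of 16 genes of endothelial identity, 12 of which served to gate ECs, 2 were higher in mutants, 7 were lower and 7 did not pass (median -0.09). The VEGF receptors Kdr (-0.93 ± 0.06, adjusted p = 4.2e-07, edgeR) and Flt1 (-0.55 ± 0.05, adjusted p = 8.3e-06, edgeR) were lower. The angiopoietin receptor Tek was lower too (-0.82 ± 0.07, adjusted p = 4.8e-06, edgeR), and Pecam1, a junctional adhesion molecule, was higher (0.27 ± 0.05, adjusted p = 0.0019, edgeR).

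Of the 20 other genes within 250 kb of Cdh5 that the files hold (GENCODE M39 positions), 6 had enough counts for the test. Gm29682, a long noncoding RNA that overlaps the start of Cdh5 on the opposite strand, was at 13.1 and 12.8 CPM in mutants and 6.56 and 2.95 CPM in controls (log2 difference 1.51 ± 0.29, adjusted p = 0.0019, edgeR). Bean1, the next protein-coding gene downstream, was at 7.72 and 5.72 CPM in mutants and 2.35 and 1.04 CPM in controls (2.03 ± 0.39, adjusted p = 0.0017, edgeR). Cmtm3 and Cmtm4 were lower in mutants (-0.40 ± 0.09 and -0.39 ± 0.11, adjusted p of 0.0041 and 0.014, edgeR), and Tk2 and Cklf did not pass. The median of the 6 was -0.22. How much of the locus the transgene contains is not given in the sources used here, and its part in these levels was not tested.

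Among 16 genes of the Hippo pathway and its targets, 6 were higher in mutants, 5 lower and 5 did not pass (median -0.05). The targets Ccn2 and Ccn1 were higher by 2.34 ± 0.08 and 2.14 ± 0.13 on the log2 scale (adjusted p of 1.7e-08 and 4.2e-07, edgeR). Lats2 was at 92.3 and 96.8 CPM in mutants and 134 and 122 CPM in controls (-0.36 ± 0.08, adjusted p = 0.0048, edgeR), and its paralogue Lats1 was lower as well (-0.40 ± 0.12, adjusted p = 0.021, edgeR).

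Of 10 genes for estrogen receptors, their chaperones and targets, 7 could be tested, of which 2 were higher, 1 was lower and 4 did not pass (median 0.03). Esr1, the mouse estrogen receptor gene, was at 11.3 and 10.2 CPM in mutant ECs and 12.8 and 16.7 CPM in control ECs and did not pass (-0.38 ± 0.19, adjusted p = 0.15, edgeR). It was much higher in mpMSC, at 428 and 459 CPM in mutants, where Cre-ERT2 had 0 and 1 UMI. In mutant ECs, 40 of 532 and 49 of 668 cells held an Esr1 UMI. The chaperones Hspa8 and Hsp90aa1 were higher in mutants (0.30 ± 0.06 and 0.22 ± 0.06, adjusted p of 0.0014 and 0.013, edgeR). Fkbp5, an immunophilin of steroid receptor complexes, was lower (-0.81 ± 0.07, adjusted p = 1.0e-05, edgeR).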

How the data were processed

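Bone cells of 2 mutant and 2 control libraries were profiled with 10x Genomics Chromium V3 chemistry. The authors trimmed reads with cutadapt 3.5, aligned them with STARsolo 2.7.10a to GRCm39 with GENCODE M26 extended by CreERT2 and Rosa26-mTmG sequences, counted exonic and intronic reads, and deposited unfiltered expected counts (UMIs, where reads that matched more than 1 gene were divided by an EM step).

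Cells had at least 1000 UMIs, 800 features and a complexity of 0.8, and at most 15% mitochondrial and 5% hemoglobin UMIs. Each was assigned to the marker list with the leading score (at least 3 markers, score 0.15, lead 0.05). Sums per library and class were rounded and tested with edgeR 4.0.16 (TMM, filterByExpr, transgenes kept, quasi-likelihood test, Benjamini-Hochberg adjusted p at most 0.05) in classes of at least 10 cells in every library compared, with DESeq2 1.42.0 as an alternative. The fits were tested on simulated counts. Genes named are the transgenes, Cdh5, Lats2, Esr1, 4 fixed lists with up to 4 values each, and the 5 genes most like Cre-ERT2; Angpt2, Thbs1, Apln, Kcne3, Stab2, Gja4, Fn1, S100a4 and Rps3a3 were added after their values were seen. Members and lists were chosen with earlier results of these data known. Intervals are exact at 95% and cover counting error only. Each file holds 1 library of 69.6 to 85.9 M UMIs, so 3 UMIs correspond to 0.0349 to 0.0431 CPM. Doublets were called from simulated pairs and kept, except in 1 alternative.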

Additional observations from a re-analysis of the deposited data

Results flagged for a closer look

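Cre-ERT2 also appeared in barcodes that none of the comparisons used, above the controls, which held 0 there. Barcodes of at least 1000 UMIs that failed the cell filter held 13 UMIs in mutant 1 and 22 in mutant 2, in 8 and 17 barcodes. Their ratio was 5.23 (interval 2.78 to 8.94) and 5.49 (3.44 to 8.31) per 1000 endothelial marker UMIs, close to that of ECs. Barcodes of 100 to under 1000 UMIs held 9 UMIs in mutant 1 and 8 in mutant 2, at 8.40 and 5.76 CPM, with ratios of 8.62 (3.94 to 16.4) and 5.99 (2.58 to 11.8). Controls held 4521 and 4900 endothelial marker UMIs in the first kind of barcode and 1423 and 1581 in the second, each with 0 Cre-ERT2 UMIs.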

How the results depend on the processing

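The log2 difference of Cre-ERT2 between genotypes in ECs passed the threshold in the 4 fits without single libraries (5.92 to 6.28), where the spread comes from the genotype that keeps 2 libraries and the lone library is assumed to vary like it, and the 8 other alternatives (6.03 to 6.21). Whether same-numbered libraries share more than a number is not given in the sources used here (correlation of deviations 0.117 over 14448 genes). With the replicate block the value was 6.10. For non-endothelial cells against ECs it was -9.27 to -7.78 without single mutants, values with no test because 1 library leaves no residual degrees of freedom, and -8.99 to -8.19 otherwise. tipEC-like cells had 0.98 to 1.05 without single mutants, and per Cdh5 UMI, an alternative chosen after seeing the data, 0.47. bmEC-like cells had -1.02 with DESeq2 and -0.66 with clusters, neither past the threshold, and -1.37 to -0.75 without single mutants. Subtypes that did not pass changed sign. aEC-like cells had 0.26 with clusters, 0.078 per Cdh5 UMI and -0.27 to 0.05 without single mutants; mpEC-like cells had -0.85 with clusters, -0.056 per Cdh5 UMI and 0.05 to 0.31. alEC-like cells had -0.0099 with DESeq2, -0.025 with the 20% filter, -0.0028 with no replicate block, -0.0030 with stricter cells, 0.43 per Cdh5 UMI and -0.39 to 0.35. The cause was not tested. DESeq2 gave no adjusted p between genotypes in bmEC-like and alEC-like cells. Classes with at most 2 UMIs a genotype reversed: mpMSC between genotypes without mutant 2 (-1.999, the others without single libraries up to 3.016) and OB with DESeq2 (0.0057). DESeq2 called 2771 genes in ECs between genotypes (edgeR 5226), 7506 between non-endothelial cells and ECs (12602), 1698 for tipEC-like (3052) and 1646 for bmEC-like cells (2827), and 5496 genes were called between non-endothelial cells and ECs with the 20% filter. The share of mutant ECs with Cre-ERT2 was 9.81% thinned to 2000 UMIs (8.59% to 11.0% by library), 18.0% at 4000 and 29.7% unthinned; that of non-endothelial cells was 0.0257% (0.0242% to 0.0272%), 0.0572% and 0.134%. Against Cdh5 alone, non-endothelial cells had 76.0% of the EC ratio, and without cells that held an endothelial marker UMI their level was 0.0367 CPM. In mpEC-like cells, all control UMIs lay in control 1; without it controls were at 0 and no size is given, and without control 2 the difference was 5.235. Free eGFP in control 2 was 1.82 CPM under 50 UMIs against 0.574 CPM. With 2 libraries a genotype, an exact permutation test could not go below p = 0.333. Reporter UMIs in ECs stayed at 0 under each cell definition and without each library; no fit of them could be made.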
